A study of Mus musculus with 15 samples.

Results

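Genes of the machinery that loads peptide onto class II major histocompatibility complex (MHC-II) molecules, together with the regulators of that machinery, were followed through RNA sequencing of 105K tumors. The 10 genes are CIITA, RFX5, RFXANK, RFXAP, CD74, H2-DMA, H2-DMB1, H2-DMB2, CTSS and IFI30, and they were chosen by symbol. All 10 were found among the 24891 genes of the expression table. The 105K cells are a Tsc2-deficient mouse line that arose as a renal tumor in a Tsc2+/- animal, and they were grown under the skin of male wild-type C57BL/6J mice that were 6 weeks old. The cells of every group had been transduced with an shRNA and selected with puromycin, either a control shRNA, sh-NC, or an shRNA against B7-H3 (CD276), of which there were 2, marked (1) and (2). Each line was a pool of transduced cells and not a single clone. The 15 libraries form 5 groups of 3, namely bulk tumors with sh-NC, bulk tumors with sh-B7-H3 (1), and tumor cells sorted from tumors that carried sh-NC, shRNA (1) or shRNA (2) against B7-H3. Sorted cells are those that passed through a magnetic column after labelled host cells had been held back.

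MHC-II molecules carry peptides from the endosome to the cell surface, where CD4+ T cells read them. Most cells other than professional antigen-presenting cells make little MHC-II until interferon-γ reaches them. CIITA, the class II transactivator, does not bind DNA itself and is recruited by a complex of RFX5, RFXANK and RFXAP, CREB and NF-Y on the X and Y boxes of the target promoters. CD74, the invariant chain, fills the groove of new MHC-II molecules and is cut down by proteases, among them cathepsin S (CTSS). H2-DM, a pair of an α chain (H2-DMA) and a β chain (H2-DMB1 or H2-DMB2), exchanges the remaining fragment for antigenic peptide. IFI30, also called GILT, is a reductase that opens disulfide bonds of antigens in the endosome.

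The genes of H2-DM lie side by side on chromosome 17, and the sequences just before the starts of its β chain genes are shown because they span the position of the X box, where RFX binds MHC-II promoters. RefSeq promoter sequences of build GRCm38.p6 were used for 7 of the 10 genes. Those of CIITA, RFXAP and CD74 were not searched, so nothing is said of their promoters. The 250 bases before each start were searched on both strands for the X box word AGNAACNG, the Y box core ATTGG, the interferon response core GAAANNGAA and the GAS word TTCNNNGAA. The X box word occurred in 14.5% of all 32851 promoters in the table, the Y box core in 33.8% and both together in 4.80%. The interferon response core occurred in 7.13% and the GAS word in 7.02%. The stretches below span the X box position of both β chain genes and, for comparison, of the class II chains H2-EB1 and H2-AA, with the 8 bases of the X box word, or the bases in its place, in capitals.
H2-DMB1: ctAGTAACTGatgatgctaggctgattcac
H2-DMB2: ctATTAACCGatgatgctaggctaagtcac
H2-EB1: ctAGCAACTGatgatgctggactcctttga
H2-AA: ctGGCAACTTtgacgtcatcacaagagaat

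These stretches are at chr17:34153094-34153123 on the plus strand for H2-DMB1, at chr17:34145123-34145152 on the plus strand for H2-DMB2, at chr17:34305773-34305802 on the plus strand for H2-EB1 and at chr17:34287878-34287907 on the minus strand for H2-AA. H2-DMB1 and H2-EB1 held the X box word. H2-DMB2 missed it by 1 letter, and with positions counted from 1 at the first capital its substitutions from H2-DMB1 were G2T and T7C. H2-AA missed it by 2 letters. The X box word and the next Y box core were separated by 26 bases in H2-DMB1 and by 25 bases in H2-EB1. H2-DMB2 and H2-AA held no X box word there, so their capitals were placed at the spacing of H2-DMB1. Their spacing is thus not a finding, and their missed letters are counted at that place. From the first base shown to the end of the Y box core, H2-DMB1 and H2-DMB2 were identical at 36 of 41 bases. The stretch of H2-DMB1 lies before its RefSeq start but inside the first exon of a GENCODE vM21 transcript of the gene. That of H2-DMB2 also lies before its RefSeq start but inside the GENCODE gene, which starts at chr17:34143307. The matches describe letters and are not measured binding.

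Among the other genes, the 250 bases before the start of RFX5 held the X box word next to a Y box core on the opposite strand, shown here in capitals, and those before CTSS held the interferon response core, also in capitals.
RFX5: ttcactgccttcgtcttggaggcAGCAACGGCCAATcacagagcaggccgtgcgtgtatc
CTSS: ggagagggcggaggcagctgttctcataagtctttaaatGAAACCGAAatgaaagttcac

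They are at chr3:94954023-94954082 and chr3:95526726-95526785, both on the plus strand. The end of the RFX5 stretch runs past the GENCODE start of the gene at chr3:94954075. RFXANK held the Y box core alone, H2-DMB2 held the GAS word in addition to its Y box core, and IFI30 held none of the words. H2-DMA has 2 starts in the table. The bases before the first held none of the words and those before the second held the Y box core.

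Values are FPKM divided by a factor for each library and are called scaled FPKM. The depth of the libraries relative to each other ranged from 0.468 to 1, and the number of reads was known only where the low values stepped in whole reads. Epithelial markers were present in every library, and their sum over 7 genes was higher with sh-B7-H3, at 1507 to 1874 scaled FPKM against 897 to 1082 with sh-NC in sorted cells and at 1045 to 1388 against 787 to 897 in bulk tumors. EPCAM alone was at 126 to 221 against 17.2 to 27.4 in sorted cells. Whether this bears on the levels below was not tested. The 10 leukocyte markers summed to 4.55 to 12.3 in 8 of the 9 sorted libraries and to 322 to 638 in the bulk tumors. Sorted sh-B7-H3 (2) replicate 1 stood apart with a leukocyte sum of 334 and a macrophage sum of 782, so the calls in sorted cells were repeated without it. CD276, the targeted gene, differed from sh-NC on the log2 scale by -1.04 in sorted sh-B7-H3 (1), 0.12 in sorted sh-B7-H3 (2) and -0.07 in bulk sh-B7-H3 (1) (limma adjusted p = 0.0547, 0.775 and 0.709). A lower CD276 thus passed an adjusted p under 0.05 in none of these groups, with only sorted sh-B7-H3 (1) close to it. The groups are called by the shRNA in their labels. Nothing in the labels ties the 3 libraries of a group to separate animals, though the study describes them as biological samples, and the p-values measure the spread between these libraries.

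In sorted cells the transactivator, the invariant chain, the chains of H2-DM and cathepsin S were higher with either shRNA. With sh-B7-H3 (1), 6 of the 10 genes rose against sh-NC (limma adjusted p under 0.05 over 11163 genes, of which 9.03% rose), and with sh-B7-H3 (2) the number was also 6 (11.7% of 11243 genes rose). In both cases they were CIITA, CD74, H2-DMA, H2-DMB1, H2-DMB2 and CTSS, and none of the other 4 genes passed in either direction. The comparisons share their 3 sh-NC libraries. CIITA and H2-DMA reached 1 scaled FPKM, the level needed to be tested, in sh-B7-H3 libraries only, so they could be tested only because they were high there. Over both shRNAs as 1 group of 6 libraries, the median difference of the 10 genes was 2.695 on the log2(scaled FPKM + 1) scale, against 0.01 over the 11424 genes tested. All fits over both shRNAs took these 6 libraries as independent, though same-numbered libraries of the sh-B7-H3 groups deviated together. Their intervals and p-values may therefore be too narrow and too small.

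**Figure D1:**
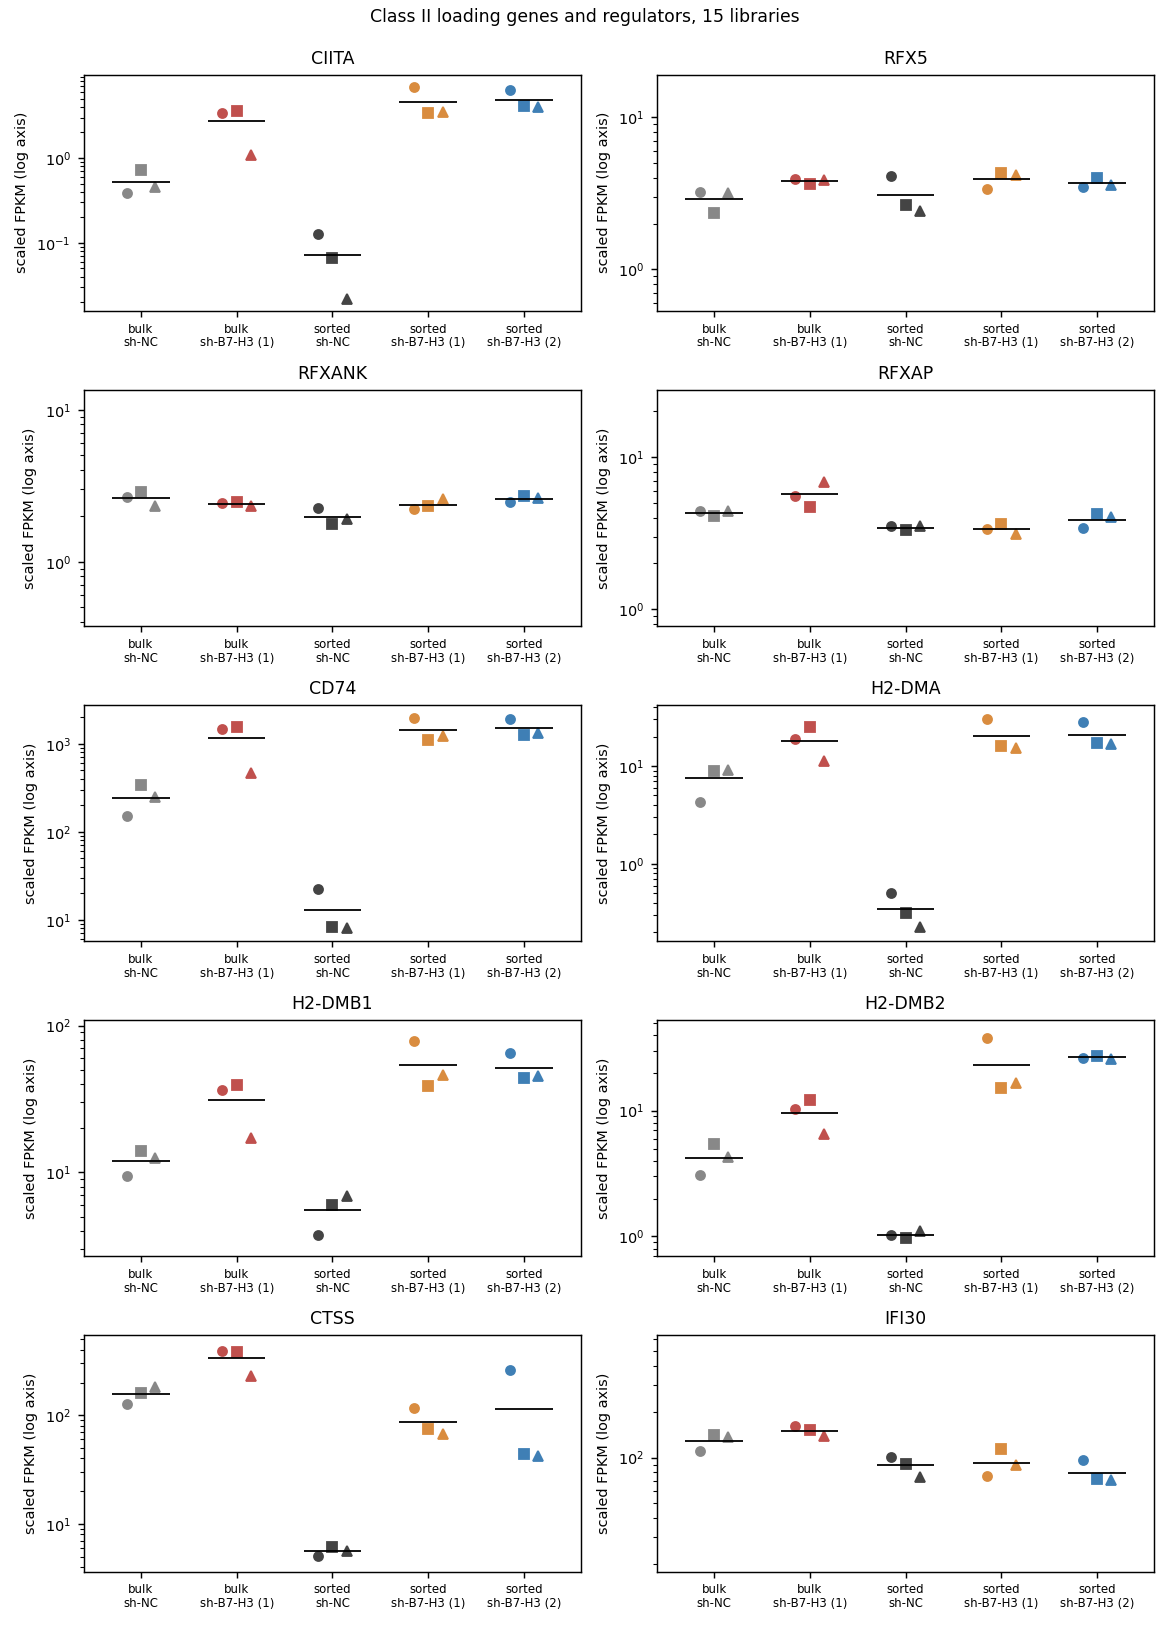
Scaled FPKM (log axis) of the 10 genes in each of the 15 libraries, with circles, squares and triangles for replicates 1, 2 and 3 and a line at the mean of each group. CIITA, CD74, H2-DMA, H2-DMB1, H2-DMB2 and CTSS were lowest in sorted sh-NC cells, and RFX5, RFXANK and RFXAP lay between 1.77 and 6.86 scaled FPKM in all libraries.

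CIITA was close to undetected in sorted sh-NC cells and present in every sh-B7-H3 library. The sorted sh-NC libraries held 0.127, 0.0672 and 0.0221 scaled FPKM, those with sh-B7-H3 (1) 6.88, 3.38 and 3.47, and those with sh-B7-H3 (2) 6.26, 4.12 and 3.98. All 6 sh-B7-H3 libraries were above the 3 sh-NC libraries, and the sh-B7-H3 groups overlapped each other. The log2 difference was 2.32 ± 0.22 (SE) for sh-B7-H3 (1) and 2.41 ± 0.17 for sh-B7-H3 (2) (limma adjusted p = 0.000324 and 9.00e-05). As CIITA could be tested only through its sh-B7-H3 libraries, these p-values are no independent support. The size of the differences depends on the pseudocount, since the sh-NC level lies far below 1, and with a pseudocount of 0.1 they were 4.73 and 4.84. Without replicate 1 of sorted sh-B7-H3 (2), the library rich in leukocyte markers, the difference over both shRNAs was 2.29 (limma adjusted p = 2.91e-05).

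In bulk tumors CIITA was at 0.387, 0.727 and 0.450 with sh-NC and at 3.37, 3.61 and 1.10 with sh-B7-H3 (1). The groups did not overlap, and replicate 3 of bulk sh-B7-H3 (1) lay closest to the controls. The order of the group means was sorted sh-NC (0.0721 ± 0.0526), bulk sh-NC (0.522 ± 0.181), bulk sh-B7-H3 (1) (2.69 ± 1.39), sorted sh-B7-H3 (1) (4.58 ± 1.99) and sorted sh-B7-H3 (2) (4.79 ± 1.28, SD, n = 3 each). The first 3 groups of this order were separate from each other, while the libraries of bulk sh-B7-H3 (1) overlapped those of sorted sh-B7-H3 (1).

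The subunits of RFX, which bind the X box and bring CIITA to it, were present in all libraries. RFX5 was at 4.13, 2.65 and 2.41 scaled FPKM in sorted sh-NC cells and between 3.39 and 4.30 in the 6 sorted sh-B7-H3 libraries. Over both shRNAs its log2 difference was 0.27, with a 95% interval from -0.04 to 0.57 (limma adjusted p = 0.212). One library decided this, because without sorted sh-NC replicate 1 the difference was 0.45 and RFX5 rose (limma adjusted p = 0.0199). Of its exon bases, 26.8% are shared with an antisense gene on the opposite strand, B230398E01Rik, and the strand setting of the counting is not given in the sources used here.

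RFXANK was at 2.27, 1.77 and 1.90 in sorted sh-NC cells and between 2.23 and 2.57 with sh-B7-H3 (1), which overlapped sh-NC. With sh-B7-H3 (2) it was between 2.47 and 2.70, above every sh-NC library, and the difference of 0.27 ± 0.12 did not pass (SE, limma adjusted p = 0.167). Over both shRNAs its log2 difference was 0.23 with an interval from 0.01 to 0.44 before adjustment (limma adjusted p = 0.138). RFXAP, with 3.50, 3.31 and 3.51 in sorted sh-NC cells and 3.13 to 4.22 in the sh-B7-H3 libraries, differed by 0.06, with an interval from -0.17 to 0.28. For RFXAP the FPKM steps correspond to 155 reads or more in each library, so its precision is not limited by a few reads. RFXANK shares 33.8% of its exon bases with Nr2c2ap on the opposite strand. None of the 3 subunits passed over both shRNAs without replicate 1 of sorted sh-B7-H3 (2) (limma adjusted p from 0.187 for RFXANK to 0.741 for RFXAP).

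In bulk tumors RFX5 was at 3.22, 2.36 and 3.18 scaled FPKM with sh-NC and at 3.94, 3.65 and 3.85 with sh-B7-H3 (1). RFXAP was at 4.45, 4.08 and 4.41 with sh-NC and at 5.52, 4.72 and 6.86 with sh-B7-H3 (1). For both genes the groups did not overlap, and the log2 differences of 0.30 ± 0.12 and 0.32 ± 0.13 did not pass (SE, limma adjusted p = 0.111 and 0.120). One library decided the call of RFXAP, which rose by 0.43 without replicate 2 of bulk sh-B7-H3 (1) (limma adjusted p = 0.0377). RFXANK lay between 2.32 and 2.88 with sh-NC and between 2.33 and 2.49 with sh-B7-H3 (1).

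CD74, the invariant chain, was the most abundant of these genes per unit of length in sh-B7-H3 cells and had the largest log2 difference over both shRNAs of all 11424 genes tested. The sorted sh-NC libraries held 22.3, 8.30 and 7.96 scaled FPKM. With sh-B7-H3 (1) they held 1988, 1114 and 1223, and with sh-B7-H3 (2) 1917, 1253 and 1316. Every sh-B7-H3 library lay far above the sh-NC libraries. The means were 112-fold higher with sh-B7-H3 (1) and 116-fold higher with sh-B7-H3 (2), and the log2 differences were 6.80 ± 0.39 and 6.88 ± 0.37 (SE, limma adjusted p = 6.78e-05 and 5.50e-05). Without replicate 1 of sorted sh-B7-H3 (2) the difference for this shRNA was 6.69.

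H2-DMA, the α chain of H2-DM, was at 0.503, 0.316 and 0.226 scaled FPKM in sorted sh-NC cells. It was at 30.2, 15.9 and 15.2 with sh-B7-H3 (1) and at 28.4, 17.2 and 16.7 with sh-B7-H3 (2). In both sh-B7-H3 groups replicate 1 was the highest library, and all 6 were above sh-NC. The log2 differences were 3.93 ± 0.25 and 3.98 ± 0.21 (SE, limma adjusted p = 7.34e-05 and 5.50e-05). H2-DMA could be tested only through its sh-B7-H3 libraries, so these p-values are no independent support. The differences became 5.49 and 5.54 with a pseudocount of 0.1, because the sh-NC level is below 1. H2-DMA shares 10.4% of its exon bases with Brd2 on the opposite strand.

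H2-DMB1, the first of the β chain genes, was already present in sorted sh-NC cells, at 3.75, 6.02 and 6.95 scaled FPKM. It was at 78.1, 38.9 and 45.9 with sh-B7-H3 (1) and at 64.9, 44.0 and 45.1 with sh-B7-H3 (2), with no overlap with sh-NC. The log2 difference was 3.04 ± 0.29 (SE) with sh-B7-H3 (1) and had a 95% interval from 2.47 to 3.54 with sh-B7-H3 (2) (limma adjusted p = 0.000297 and 0.000140). H2-DMB2, the second β chain gene, was lower in every library. It was at 1.02, 0.972 and 1.11 in sorted sh-NC cells, at 37.6, 15.1 and 16.5 with sh-B7-H3 (1) and at 26.3, 27.3 and 25.8 with sh-B7-H3 (2). Its differences were 3.45 ± 0.31 and 3.76 ± 0.11 (SE, limma adjusted p = 0.000226 and 7.61e-06). Without replicate 1 of sorted sh-B7-H3 (2), the differences over both shRNAs were 3.85 for H2-DMA, 2.96 for H2-DMB1 and 3.57 for H2-DMB2, and all 3 genes still passed (limma adjusted p from 3.15e-06 for H2-DMA to 2.73e-05 for H2-DMB1).

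The FPKM steps of H2-DMB2 correspond to at least 47, 27 and 47 reads in the sorted sh-NC libraries and to at least 621 reads in each sorted sh-B7-H3 library, so its level in control cells does not rest on single reads. Of the 75-base windows of H2-DMB1 transcripts, 15.8% also occur in transcripts of H2-DMB2, and reads from those windows, of the length sequenced here, cannot be told apart. How such reads were counted is not given in the sources used here.

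In sorted cells the chains of H2-DM were not in the same proportion with sh-NC and with sh-B7-H3. H2-DMA divided by the sum of H2-DMB1 and H2-DMB2 was 0.105, 0.0452 and 0.0281 in the sorted sh-NC libraries. The ratio lay between 0.236 and 0.311 in the 6 sorted sh-B7-H3 libraries, without overlap. It is imprecise in sorted sh-NC cells, where H2-DMA was between 0.226 and 0.503 scaled FPKM. In bulk tumors the ratio was 0.341 to 0.540 with sh-NC and 0.401 to 0.480 with sh-B7-H3 (1). These bulk groups overlapped each other and lay above both sorted ranges. The share of the β chains also differed in sorted cells. H2-DMB2 over H2-DMB1 was 0.160 to 0.272 in sorted sh-NC cells, 0.361 to 0.481 with sh-B7-H3 (1) and 0.405 to 0.621 with sh-B7-H3 (2). In bulk tumors it was 0.321 to 0.382 with sh-NC and 0.285 to 0.379 with sh-B7-H3 (1), and these groups overlapped. These ratios were chosen after the values had been seen and are given without a test.

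CTSS, the cysteine protease that trims the invariant chain, was at 5.10, 6.13 and 5.69 scaled FPKM in sorted sh-NC cells. It was at 117, 74.9 and 66.9 with sh-B7-H3 (1) and at 258, 43.7 and 42.0 with sh-B7-H3 (2). All sh-B7-H3 libraries were above sh-NC, and replicate 1 of sorted sh-B7-H3 (2) was far above the other 5. The log2 difference was 3.68 ± 0.21 with sh-B7-H3 (1) and 3.58 ± 0.63 with sh-B7-H3 (2) (SE, limma adjusted p = 6.78e-05 and 0.00617). Without replicate 1, the difference for sh-B7-H3 (2) was 2.73 (limma adjusted p = 0.000359). That library held 782 scaled FPKM of the 8 macrophage markers, against 62.9 to 98.1 in the other sorted sh-B7-H3 libraries and 36.2 to 50.1 in sorted sh-NC cells, and the part of macrophage RNA in the CTSS level was not tested.

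IFI30, the endosomal reductase, was abundant in all groups and did not follow the other genes. It was at 101, 91.2 and 74.4 scaled FPKM in sorted sh-NC cells, at 75.3, 114 and 88.7 with sh-B7-H3 (1) and at 96.1, 72.2 and 70.9 with sh-B7-H3 (2). The groups overlapped. Over both shRNAs the log2 difference was -0.05, with an interval from -0.42 to 0.32 (limma adjusted p = 0.867). In sorted sh-NC cells IFI30 was the highest of the 10 genes, and in sorted sh-B7-H3 cells its mean was below that of CD74 in each group.

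The sh-B7-H3 groups of sorted cells were also compared with each other. None of the 10 genes passed at an adjusted p under 0.05 by limma, none had an unadjusted p under 0.05, and 3.40% of the 11239 genes tested passed in either direction. The intervals of the difference, shRNA (1) minus shRNA (2), ran from -0.67 to 0.49 for CIITA, from -0.67 to 0.52 for CD74, from -0.72 to 0.62 for H2-DMA and from -0.57 to 0.65 for H2-DMB1. For H2-DMB2 the difference was -0.31 ± 0.30 (SE). The interval of CTSS, from -1.40 to 1.59, was the widest. Leaving out 1 library changed a call for 2 of the genes. Without replicate 1 of sorted sh-B7-H3 (2), CTSS was higher with sh-B7-H3 (1) by 0.95 (limma adjusted p = 0.0362), and without replicate 1 of sorted sh-B7-H3 (1), H2-DMB2 was lower with sh-B7-H3 (1), at -0.71 (limma adjusted p = 0.0202). These fits did not pair the libraries. With replicate numbers as a block, 1015 of the 11239 genes were higher with sh-B7-H3 (1) and 849 were lower, and none of the 10 genes passed.

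**Figure D2:**
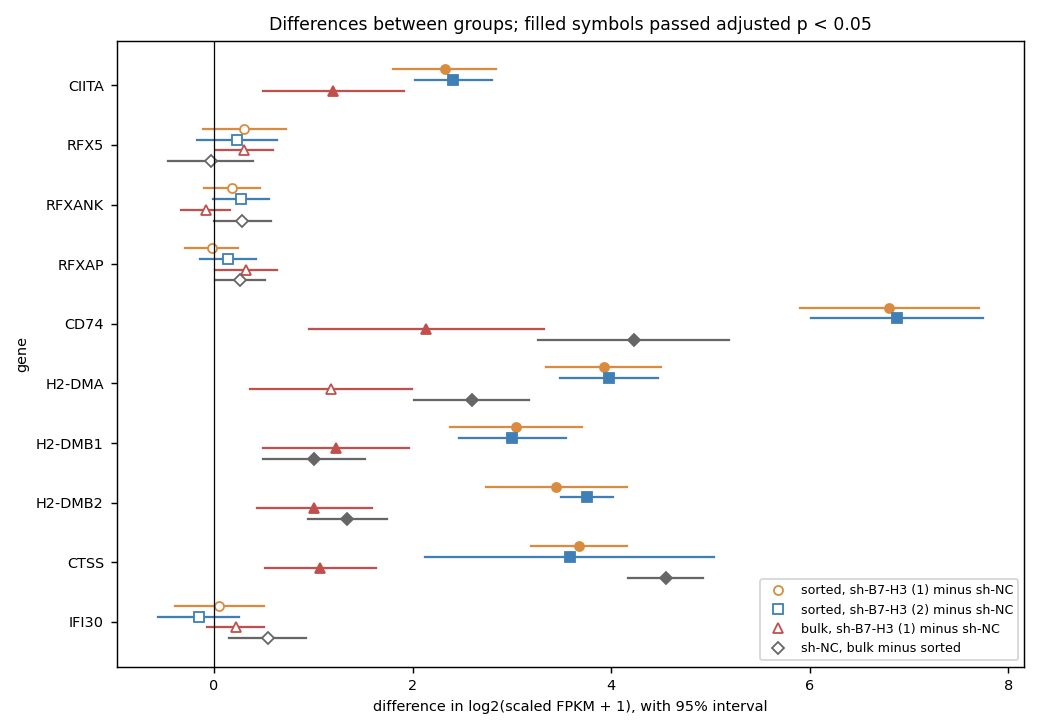
Differences in log2(scaled FPKM + 1) of the 10 genes in 4 comparisons, with 95% intervals and filled symbols where the limma adjusted p was under 0.05. For CD74 the differences in sorted cells were 6.80 and 6.88 and that in bulk tumors was 2.14, and CIITA has no value for bulk against sorted sh-NC because it was not tested there.

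In bulk tumors, where tumor and host cells were sequenced together, 5 of the 10 genes rose with sh-B7-H3 (1) against sh-NC (12.8% of 11800 genes rose). In such samples more cells of a type and more RNA per cell cannot be told apart. CD74 was at 152, 336 and 246 scaled FPKM with sh-NC and at 1470.3, 1552 and 471 with sh-B7-H3 (1), which left the groups separate. Its log2 difference was 2.14 ± 0.50, and those of H2-DMB1, CIITA, CTSS and H2-DMB2 were 1.23 ± 0.31, 1.20 ± 0.30, 1.07 ± 0.24 and 1.01 ± 0.25 (SE, limma adjusted p from 0.0235 for CTSS to 0.0353 for H2-DMB1). CIITA could be tested only through its sh-B7-H3 libraries.

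H2-DMA was at 4.29, 8.99 and 9.10 in bulk sh-NC tumors and at 18.8, 24.8 and 11.1 in bulk sh-B7-H3 (1) tumors. These libraries did not overlap either, and the difference of 1.18 ± 0.34 missed the threshold (SE, limma adjusted p = 0.0510). CTSS was higher in bulk than in sorted libraries of the same shRNA, at 126, 160 and 183 with sh-NC and at 391, 379 and 232 with sh-B7-H3 (1). For all 6 of these genes replicate 3 of bulk sh-B7-H3 (1) was the lowest of its group. It also held the lowest leukocyte and macrophage sums of the group, 322 and 912, against 519 and 638, and 1155 and 1552, in the other replicates. Over the groups, leukocyte sums of 333 to 503 with sh-NC and 322 to 638 with sh-B7-H3 (1) overlapped, as did macrophage sums of 871 to 1515 and 912 to 1552. Other marker sums were higher with sh-B7-H3 (1), without overlap. They were 5.93 to 19.8 against 1.63 to 2.65 for T cells, up to 20.7 against at most 8.74 for dendritic cells and 265 to 635 against 81.1 to 156 for fibroblasts. The part of host cells in the bulk differences was not tested.

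The bulk calls changed with the library that was left out. The number of genes that rose was 0 without replicate 1 or replicate 3 of bulk sh-NC, 1 without replicate 2 of bulk sh-NC and 0 without replicate 1 of bulk sh-B7-H3 (1). It stayed at 5 without replicate 2 or replicate 3 of bulk sh-B7-H3 (1). Among all genes tested, 1515 rose with no library left out. That number was 387 to 925 in the fits with fewer calls and 1076 to 1927 where 5 genes still rose.

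Bulk and sorted sh-NC tumors were also compared. They differ in their host cells and in dissociation and passage through the column, and these cannot be told apart. Of the 9 genes that could be tested, 5 were higher in bulk tumors (10.4% of 11418 genes were higher). The log2 differences, bulk minus sorted, were 4.55 ± 0.16 for CTSS, 4.23 ± 0.42 for CD74, 2.59 ± 0.25 for H2-DMA, and for the β chains 1.34 ± 0.17 (H2-DMB2) and 1.01 ± 0.22 (H2-DMB1) (SE, limma adjusted p from 5.31e-06 for CTSS to 0.0213 for H2-DMB1). Without any 1 of the bulk sh-NC libraries the number was 3. H2-DMB1 then missed the threshold and H2-DMA could not be tested. H2-DMA reached 1 scaled FPKM in bulk libraries only and could be tested only because it was high there. CIITA had too few libraries at 1 scaled FPKM to be tested, and its sorted and bulk sh-NC libraries did not overlap. IFI30 differed by 0.54 ± 0.17 and missed the threshold (SE, limma adjusted p = 0.0629). The bulk libraries of IFI30, RFXANK and RFXAP were all above the sorted ones, and none of the 3 genes passed. Of the genes described here only RFX5 overlapped, and the share of all genes without overlap was not counted.

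The effect of sh-B7-H3 (1) was larger in sorted cells than in bulk tumors for 4 of the 10 genes, by an interaction term that only 0.249% of 12062 genes passed in this direction. The difference of the effects was 4.67 ± 0.71 for CD74, 2.75 ± 0.47 for H2-DMA, 2.61 ± 0.34 for CTSS and 2.44 ± 0.44 for H2-DMB2 (SE, limma adjusted p = 0.0192, 0.0344, 0.00854 and 0.0423). H2-DMB1 and CIITA pointed the same way, at 1.82 ± 0.47 and 1.12 ± 0.41, and did not pass (SE, limma adjusted p = 0.139 and 0.276). Bulk sh-NC tumors held these transcripts with host cells present, while sorted sh-NC cells held few, and the interaction cannot be told apart from this difference in the control level. The number fell to between 1 and 2 when single libraries were left out, except that it was between 3 and 4 without replicate 1 of bulk sh-NC or any 1 of the bulk sh-B7-H3 (1) libraries. H2-DMA and H2-DMB2 did not pass with no filter (limma adjusted p = 0.0547 and 0.0652) or with quantile normalization (limma adjusted p = 0.0507 and 0.0517), and CTSS did not pass with all 15 libraries in 1 fit (limma adjusted p = 0.159).

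Ratios within a library need no scaling between libraries and show how far the genes kept their proportion to CIITA. In the 6 sorted sh-B7-H3 libraries CD74 was 289 to 352 times CIITA per unit of length, with a coefficient of variation of 7.20%, while CIITA itself varied by 32.1%. H2-DMA was 4.16 to 4.72 times CIITA, varying by 4.74%, and H2-DMB1 was 10.4 to 13.2 times CIITA, varying by 8.64%. H2-DMB2, at 4.20 to 6.63 times CIITA, varied by 19.4%. CTSS was at 10.6 to 41.3 times CIITA, with a variation of 56.4%. One library decided this value, because without replicate 1 of sorted sh-B7-H3 (2) CTSS was 10.6 to 22.2 times CIITA and varied by 32.7%. Over the same 5 libraries the variation was 7.71% for CD74, 5.05% for H2-DMA, 8.11% for H2-DMB1 and 17.5% for H2-DMB2.

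In bulk tumors with sh-B7-H3 (1), CD74 was 431 ± 4.03 times CIITA (SD, n = 3) and H2-DMA 5.57 to 10.1 times, with every library above the range of the sorted sh-B7-H3 libraries. CTSS was 105 to 210 times CIITA there and 220 to 406 times in bulk sh-NC tumors. Sorted sh-NC cells gave 123 to 361 for CD74 and 29.6 to 315 for H2-DMB1, and these ratios are imprecise because CIITA was between 0.0221 and 0.127 scaled FPKM. The ratios to CIITA are descriptions and were not tested.

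**Figure D3:**
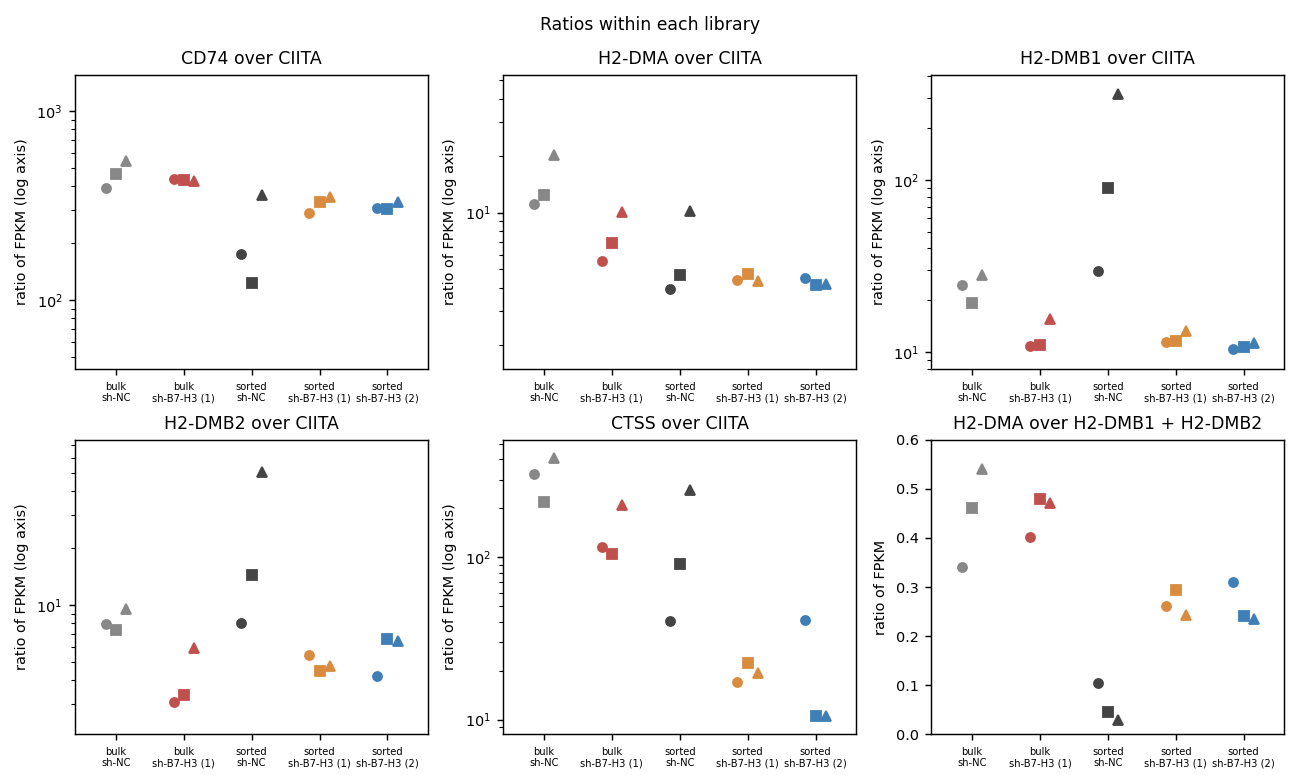
Ratios of FPKM within each library for 5 genes over CIITA (log axes) and for H2-DMA over the summed β chains H2-DMB1 and H2-DMB2 (linear axis from 0), with circles, squares and triangles for replicates 1, 2 and 3. H2-DMA over CIITA was 4.16 to 4.72 in the 6 sorted sh-B7-H3 libraries, and CTSS over CIITA was 10.6 to 41.3.

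Host cells were followed through their markers beside these genes. In sorted cells other than replicate 1 of sh-B7-H3 (2), the macrophage sum was 62.9 to 98.1 in the 5 sh-B7-H3 libraries. It was 36.2 to 50.1 in the 3 sh-NC libraries, so the sum too was higher with sh-B7-H3. The most abundant of its 8 genes weigh most in the sum, which does not show that each gene was higher. CIITA was 3.38 to 6.88 against 0.0221 to 0.127 in the same libraries. Summed T cell markers were 0.240 to 0.676 in these 5 libraries and 0.0627 to 0.0906 with sh-NC, again without overlap. Summed B cell markers were 0.176 to 1.00 against 0.386 to 0.908 and summed dendritic cell markers 1.29 to 1.79 against 1.33 to 2.18, with up to 5 of the 7 dendritic cell genes at 0. Fibroblast sums were 49.0 to 81.4 with sh-B7-H3 (1), 114 to 152 in the 3 libraries with sh-B7-H3 (2) and 31.2 to 77.5 with sh-NC. The part of these cells in the levels of the 10 genes was not tested. In replicate 1 of sh-B7-H3 (2) the sums were 11.4 for B cells, 14.8 for dendritic cells and 20.5 for T cells. IFNG was detected at 0.724 scaled FPKM in that library and listed at 0 in the other 8 sorted libraries.

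**Figure D4:**
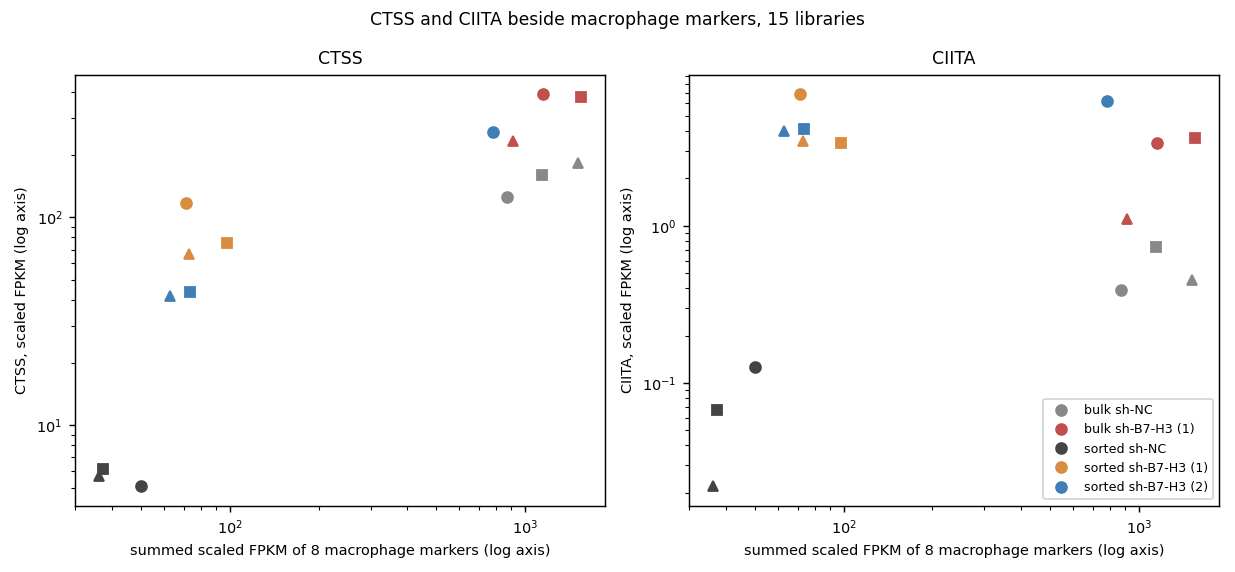
CTSS and CIITA in scaled FPKM against the summed scaled FPKM of 8 macrophage markers, all on log axes, with 1 symbol per library and circles, squares and triangles for replicates 1, 2 and 3. The 5 sorted sh-B7-H3 libraries with macrophage sums of 62.9 to 98.1 had CIITA of 3.38 to 6.88, and bulk sh-NC tumors with sums of 871 to 1515 had 0.387 to 0.727.

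The MHC-II chains that these genes serve moved with them. Of 6 genes for the classical chains and H2-O, the inhibitor of H2-DM, 3 could be tested and all 3 rose over both shRNAs (12.6% of all genes tested rose), with log2 differences of 6.42 for H2-AA, 6.19 for H2-AB1 and 5.80 for H2-EB1. The differences were 6.26, 6.04 and 5.62 without replicate 1 of sorted sh-B7-H3 (2), and all 3 still passed. H2-OA, H2-OB and H2-EB2 were too low to be tested. The chains of H2-O were near 0 in sorted cells apart from replicate 1 of sh-B7-H3 (2), with 1.10 for H2-OA and 1.34 for H2-OB against at most 0.235 and 0.0344 in the other sorted libraries. CD74 was 3.67 to 5.91 times H2-AA in the sorted sh-B7-H3 libraries and 3.83 to 5.71 times in sorted sh-NC cells, so these ranges overlapped.

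Among 13 genes that control CIITA or stand with it on the promoter, 5 rose over both shRNAs and none fell (12.6% of all genes tested rose). Among them were IRF1, an interferon-induced factor that acts on the CIITA gene, with a log2 difference of 2.87, NLRC5, the transactivator of class I genes, with 1.13, IRF2, with 0.59, and NFYA, a subunit of NF-Y, with 0.40. Of 12 endosomal proteases and inhibitors, 4 rose and 1 fell (12.6% of all genes tested rose and 7.92% fell). CTSC, cathepsin C, rose by 2.11, CTSH by 1.71, SPPL2A, a protease that removes the last stub of CD74, by 0.58, and CTSB by 0.54, while CTSF fell by 0.40 on the log2 scale. NFYA, CTSB and CTSF did not pass without replicate 1 of sorted sh-B7-H3 (2) (limma adjusted p = 0.0593, 0.0714 and 0.0505), which left 4 of 13 and 3 of 12 genes that rose and 0 that fell by limma. In that fit 1237 of all 11336 genes tested rose and 702 fell. CTSF and NFYA were named after their values had been seen.

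The binding partners of CD74 as a surface receptor did not rise with it. Over both shRNAs in sorted cells none of 4 passed by limma in either direction, and 1 had an unadjusted p under 0.05. CXCR4 and MIF differed by -0.79 and -0.60 (limma adjusted p = 0.237 and 0.0827). CXCR4 fell by 1.10 without replicate 1 of sorted sh-B7-H3 (2) (limma adjusted p = 0.0120). With sh-B7-H3 (1) alone MIF fell by 0.69 on the log2 scale (limma adjusted p = 0.0496). In bulk tumors 3 of the 4 fell (8.52% of all genes tested fell), with -1.35 for CXCR4, -0.99 for MIF and -0.67 for DDT on the log2 scale.

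The genes whose levels were most like those of CIITA were found by Pearson's r over libraries, as a description. Over all 15 libraries the first 5 of 12194 genes, outside the 10 genes and the MHC-II chains, were IRF1 (0.991), GBP5 (0.990), IL18BP (0.987), GBP9 (0.985) and H2-Q9 (0.983). Over the 9 sorted libraries, replicate 1 of sh-B7-H3 (2) included, they were GBP3, TRIM25, DDX60, GBP5 and IFITM3, with r from 0.996 to 0.998. The libraries share groups and scaling, so these values mainly order genes by how they separate the groups. Among the genes described here, H2-DMB1 came at place 7 over 15 libraries with r of 0.982 and H2-DMA at place 5 over the sorted libraries with 0.997. Over all 15 libraries CTSS had an r of 0.537, RFX5 0.537 and IFI30 -0.16.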

How the data were processed

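RNA from bulk tumors and sorted tumor cells was sequenced by the authors with single-end reads of 75 cycles. The deposited table holds FPKM, made by the authors, with 1 column per library and 24917 entries, although it is named for counts. The submitters' processing notes name build mm10, and the aligner and annotation are not given in the sources used here. A further deposited table of log2 values for fewer genes was not used. The methods and the labels name different library kits.

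Left out were 26 entries whose symbols had become dates. Each library was scaled by its median ratio to the geometric mean of the libraries, taken over the 9872 genes that had 1 FPKM or more throughout, because MIR6236 held 6.01 to 79.7% of the summed FPKM, and scaled values plus 1 were put on the log2 scale. A comparison took in genes that had 1 scaled FPKM or more in 3 of its libraries. The test was limma, version 3.58.1 under R 4.3.3, with the trend option and Benjamini-Hochberg adjustment over all genes tested and a threshold of 0.05. The script was tested on simulated data. Whole reads were read from FPKM steps for genes whose values were whole multiples within 0.05, a tolerance chosen after seeing the data. Such reads cover counting error only.

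The 10 genes and the context and marker lists were chosen with earlier results of these data known, and p-values were adjusted over all genes and not over these lists. All 10 genes are named, up to 4 of each context list by the size of the difference over both shRNAs (1 gene that this rule names is not reported here), and the 5 genes with the highest r to CIITA. Same-numbered libraries of the sorted sh-B7-H3 groups deviated together (r of 0.513, 0.431 and 0.443 after removing group means), so the numbers were taken to pair these groups. Neither the main fit between them nor the fit over both shRNAs used the pairing, and the block changed no call of the 10 genes in either. Alternatives were FPKM as deposited, quantile normalization, a pseudocount of 0.1, no filter, replicate numbers as a block, all 15 libraries in 1 fit, and leaving out each library. Leaving out replicate 1 of sorted sh-B7-H3 (2) was also applied to the context lists and to the ratios, which was chosen after seeing the data. Positions, exon overlaps and shared windows came from GENCODE vM21 (GRCm38). Scripts used Python 3.11.15.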

Additional observations from a re-analysis of the deposited data

Results flagged for a closer look

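CTSS had a sample far from the others. Over the 6 sorted sh-B7-H3 libraries, the gap between the highest library, replicate 1 of sh-B7-H3 (2) at 258 scaled FPKM, and the next one, at 117, was 0.655 of the whole range, above the 95% critical value of Dixon's test. Chance flags about 1 group in 20. The other 9 genes had no such library. The same library held a macrophage marker sum of 782 scaled FPKM and a leukocyte sum of 334, and their part in its CTSS level was not tested.

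The effect of sh-B7-H3 (1) differed between sorted cells and bulk tumors for 4 genes by the interaction term. On the log2 scale the effect in sorted cells exceeded that in bulk tumors by 4.67 for CD74, 2.75 for H2-DMA, 2.61 for CTSS and 2.44 for H2-DMB2. Of 18 alternatives, CTSS lost its call in 1, CD74 in 6, H2-DMA in 11 and H2-DMB2 in 13. All 3 sorted sh-B7-H3 (1) libraries were above all 3 sorted sh-NC libraries for each of these genes, and the same held in bulk tumors. The genes had been picked by a call on these same libraries, and the share of all genes with separate groups was not counted.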

How the results depend on the processing

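Depth limits the values of CIITA and H2-DMA in sorted sh-NC cells, which lie below 1 scaled FPKM, and no read totals are known for them. Over all settings and comparisons, no difference of a single gene that passed changed its direction. Each difference was also counted once per alternative setting, whether or not it had passed in the main fit. In this count 824 kept their side of the threshold, 62 no longer passed and 13 passed only in the alternative. The 824 include differences that passed in neither fit, such as those of RFXANK and IFI30 in sorted cells, and are no measure of how stable the calls were. Settings in which a gene could not be tested were not counted. In sorted cells against sh-NC the number of genes that rose stayed between 4 and 7 for either shRNA and between 6 and 7 over both. It was 4 where a sh-B7-H3 library was left out, because CIITA and H2-DMA then had too few libraries at 1 scaled FPKM to be tested. Between the sorted sh-B7-H3 groups it was 0 to 1 when single libraries were left out. In bulk tumors it was 0 with no filter, 3 with the replicate block and 0 to 5 when single libraries were left out. In bulk against sorted sh-NC tumors it was 3 to 6 when single libraries were left out. For the interaction it was 2 with quantile normalization, 2 with no filter, 2 with the replicate block, where H2-DMA and H2-DMB2 did not pass (limma adjusted p = 0.0729 and 0.0827), and 1 to 4 when single libraries were left out. With all 15 libraries in 1 fit, CTSS no longer passed in bulk tumors (limma adjusted p = 0.153) or for the interaction (limma adjusted p = 0.159), while H2-DMA passed in bulk tumors (limma adjusted p = 0.0247) and RFXANK and IFI30 passed in bulk against sorted sh-NC tumors (limma adjusted p = 0.0479 and 0.0328). The cause of these changes was not tested. Without scaling, the median over all genes shifted by 0.17 for shRNA (1) and 0.21 for shRNA (2) in sorted cells, and the 6 genes that rose there were above these shifts. Same-numbered libraries of the other group pairs did not deviate together, with 8 of 30 same-numbered correlations over 0.1 in all pairs of groups, and libraries were closest to their own number in 17 of 60 cases. Apart from bulk tumors and the interaction, the replicate block changed no number of genes that passed by more than 1.5 times.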
